A study of Mus musculus with 18 samples.

Results

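The genes described here encode carriers of amino acids, glucose and monocarboxylates in bone marrow-derived macrophages (BMDMs). They are the protein-coding genes of the solute carrier families Slc1, Slc2, Slc3, Slc6, Slc7, Slc16, Slc36, Slc38 and Slc43 with at least 180 counts in total over 18 samples, and 42 of the 20615 genes in the table met this rule. The families held 3, 6, 1, 6, 7, 8, 3, 6 and 2 of the carriers in that order. Another 22 genes of these families had totals under 180, of which *Slc16a11* with 175 counts and *Slc43a1* with 173 were nearest below the limit, while *Slc7a15* with 223 and *Slc2a10* with 289 were nearest above it. Apart from these, 2 genes, *Slc7a2* and *Slc7a11*, were outside the rule by name. The rule used no difference between groups, and each of the 42 carriers also passed the filter on low counts of the test.

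Solute carriers are membrane proteins that move small molecules across the plasma membrane or the membranes of organelles. The GLUT proteins (Slc2) carry hexoses, the MCT proteins (Slc16) carry lactate, pyruvate and related acids, and the other families carry amino acids, taurine or creatine. Slc3 and Slc7 proteins work in pairs: the heavy chain encoded by *Slc3a2* brings light chains of the Slc7 family to the cell surface. Macrophages that engulf apoptotic cells, a process called efferocytosis, take up a large load of amino acids and other nutrients, and macrophages activated through Toll-like receptors use more glucose and export more lactate.

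BMDMs were grown from the bone marrow of female C57BL/6 (B6) and C57BL/6.NOD-*Aec1Aec2* (SjSS) mice aged 7 to 12 weeks, in medium with 20% L929 cell supernatant as the source of M-CSF. SjSS mice carry *Aec1* and *Aec2*, intervals of NOD origin on chromosomes 3 and 1, on the B6 background, and they serve as a model of susceptibility to Sjögren's syndrome. BMDMs of each strain were untreated (control), given apoptotic cells (AC treated) or given CpG oligonucleotide at 1 µM for 6 h (CpG treated), which made 6 groups of 3 samples. The ACs were thymocytes killed with dexamethasone, added at 5 per BMDM for 2 h and removed by washing, with a further 3 h of incubation by the labels. The strain of the thymocytes given to each RNA-seq sample is not given in the sources used here, nor whether samples that share a number share a mouse, so p-values measure the spread between these samples. The comparisons ask how each strain's carriers responded to ACs and to CpG, and whether the responses differed between the strains.

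The libraries held 30688336 to 57139662 counts on genes, with a median of 47912525, and the smallest was control SjSS replicate 2. The 7 macrophage markers were all detected in each group, with summed levels of 14835 to 22812 CPM. The summed level of 4 fibroblast markers was mostly *Col1a1*. This sum was 76.6 to 116 CPM in the 9 SjSS samples and 22.2 to 68.6 CPM in the 9 B6 samples. Mean *Col1a1* was 36.4 CPM in control B6 and 88.6 CPM in control SjSS, where *Col3a1* was at 7.82 and 8.99 CPM. Of 19 thymocyte and T cell markers, 7 passed the filter, and the sum of all 19, mostly *Cd4*, was 9.05 to 11.6 CPM in control and 6.12 to 7.58 CPM in AC treated B6 BMDMs, and 11.3 to 13.5 and 16.3 to 20.3 CPM in SjSS. Without *Cd4*, a split chosen after the values were seen, the other 18 markers summed to 1.31 to 2.11 CPM in control and 2.76 to 4.03 CPM in AC treated B6 BMDMs, and to 1.51 to 2.41 and 3.21 to 4.24 CPM in SjSS. In CpG treated BMDMs the same sum was 1.21 to 2.69 CPM over both strains. Of the 19 markers, *Trac*, *Rag1* and *Dntt* had 0 counts in control B6, and *Rag1*, *Themis* and *Dntt* had 0 counts in CpG treated B6. No thymocyte marker had 0 counts in AC treated B6. In SjSS, *Rag1* had 0 counts in control and CpG treated BMDMs, and *Themis* had 0 counts in AC treated BMDMs. B cell markers summed to at most 0.816 CPM, dendritic cell markers to at most 3.28 CPM (in AC treated SjSS) and the 2 neutrophil markers of the table to at most 11.6 CPM (in CpG treated B6). The part of RNA from other cells in the differences between groups was not tested.

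Levels are given as CPM, the count of a gene relative to the total of its library, with totals scaled by TMM. Group means are followed by the SD of 3 samples and log2 fold changes by their SE. A carrier rose, fell or differed where the adjusted p was under 0.05 by the quasi-likelihood test of edgeR, adjusted by Benjamini-Hochberg over all 15789 genes tested, and it was past the fold threshold where the log2 fold change was also over 1.3 in size. For comparisons of level between carriers, CPM was divided by the exon length in kb.

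Untreated BMDMs of both strains carried the same 4 carriers at the top of the order of mean CPM per kb. In control B6 BMDMs these were the taurine carrier *Slc6a6* with a level of 144 ± 3.57 CPM per kb, the branched-chain and aromatic amino acid carrier *Slc43a2* (LAT4) with 115 ± 1.57, the heavy chain *Slc3a2* (CD98) with 97.7 ± 6.52 and its light chain *Slc7a8* (LAT2) with 72.9 ± 0.807. In control SjSS BMDMs their levels were 138 ± 4.72, 107 ± 3.41, 95.4 ± 6.66 and 70.4 ± 1.34 CPM per kb. The creatine carrier *Slc6a8* followed in B6 at 31.6 ± 4.29 CPM per kb, and the median of the 42 carriers in control B6 was 3.38. Among glucose carriers *Slc2a1* (GLUT1) was highest at 20.9 ± 0.792 CPM per kb, and *Slc2a3* (GLUT3) had 0.5604 ± 0.107. *Slc2a6* (GLUT6), a glucose carrier of internal membranes, stood 28th in this order at 1.91 ± 0.336 CPM per kb. There were 11 carriers under 1 CPM per kb in control B6, down to the glutamate carrier *Slc1a3* and the hexose carrier *Slc2a10*, and for these the counts behind a value are few.

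**Figure D1:**
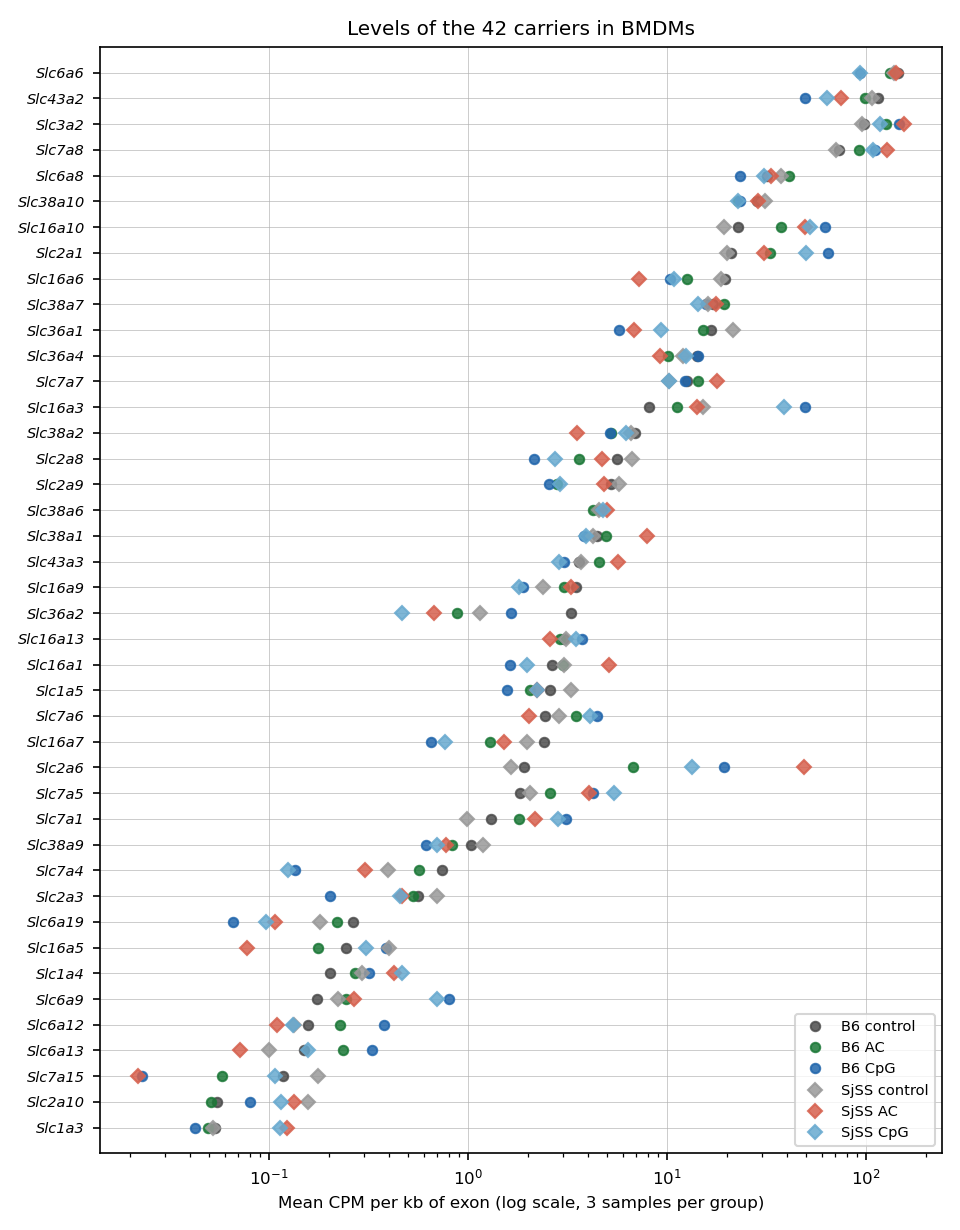
Mean level of each of the 42 carriers in the 6 groups, in CPM per kb of exon on a log scale, with circles for B6 and diamonds for SjSS and 3 samples behind each mean. *Slc6a6*, *Slc43a2*, *Slc3a2* and *Slc7a8* lie furthest to the right in the control groups of both strains, while *Slc2a6* runs from 1.65 in control to 48.7 CPM per kb in AC treated SjSS BMDMs.

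ACs moved 25 of the 42 carriers in B6 and 29 in SjSS, and in SjSS the share that rose was near that of all genes. In B6, 13 of 42 carriers (31%) rose and 12 (28.6%) fell with ACs, where 20% of all genes tested rose and 18.3% fell. At the fold threshold as well, 1 carrier rose (*Slc2a6*) and 1 fell (*Slc36a2*), beside 2.43% and 2.04% of all genes. In SjSS, 13 carriers (31%) rose and 16 (38.1%) fell, beside 28.6% and 29.4% of all genes. Past the fold threshold 2 rose (*Slc16a10* and *Slc2a6*) and 4 fell (*Slc16a5*, *Slc16a6*, *Slc36a1* and *Slc7a15*), beside 7.09% and 5.83%. The median log2 fold change of the carriers was -0.10 in B6 and -0.18 in SjSS, against 0.00 and -0.02 over all genes. In both strains 9 carriers rose with ACs, *Slc2a1*, *Slc2a6*, *Slc3a2*, *Slc7a1*, *Slc7a5*, *Slc7a7*, *Slc7a8*, *Slc16a10* and *Slc43a3*, and 10 fell, *Slc1a5*, *Slc2a8*, *Slc2a9*, *Slc16a6*, *Slc16a7*, *Slc36a4*, *Slc38a2*, *Slc38a9*, *Slc38a10* and *Slc43a2*, where 14.4% and 11.8% of all genes rose and fell in both. Only *Slc7a6* rose in one strain and fell in the other. Leaving out each of the 6 samples of the comparison in turn, 9 of the 25 calls in B6 missed the threshold at least once (*Slc1a5*, *Slc38a2*, *Slc38a7*, *Slc38a9*, *Slc43a2*, *Slc43a3*, *Slc6a6*, *Slc6a8* and *Slc7a7*, adjusted p from 0.0526 to 0.167). In SjSS 4 of the 29 calls did (*Slc16a13*, *Slc16a7*, *Slc2a9* and *Slc38a10*, adjusted p from 0.0516 to 0.208). In bulk RNA a higher level in each cell cannot be told apart from a larger share of cells that express the gene.

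CpG lowered more carriers than it raised. In B6, 13 carriers (31%) rose and 21 (50%) fell with CpG, beside 28.1% and 29.8% of all genes. In SjSS 12 (28.6%) rose and 17 (40.5%) fell, beside 27.8% and 26.4%. Past the fold threshold in B6 were 5 that rose (*Slc16a10*, *Slc16a3*, *Slc2a1*, *Slc2a6* and *Slc6a9*) and 7 that fell (*Slc16a7*, *Slc2a3*, *Slc2a8*, *Slc36a1*, *Slc6a19*, *Slc7a15* and *Slc7a4*), where the shares of all genes were 5.86% and 6.88%. In SjSS 7 rose past it (*Slc16a10*, *Slc16a3*, *Slc2a1*, *Slc2a6*, *Slc6a9*, *Slc7a1* and *Slc7a5*) and 3 fell (*Slc16a7*, *Slc36a2* and *Slc7a4*), where the shares were 4.81% and 4.45%. The median log2 fold change of the carriers was -0.23 in B6 and -0.22 in SjSS, against -0.04 and -0.01 over all genes. In both strains 11 carriers rose and 17 fell, beside 22.8% and 22.2% of all genes. With 1 of the 6 samples left out, 4 of the 34 calls in B6 missed the threshold at least once (*Slc16a13*, *Slc1a4*, *Slc38a2* and *Slc43a3*, adjusted p from 0.0547 to 0.177). So did 3 of the 29 calls in SjSS (*Slc16a9*, *Slc1a4* and *Slc6a8*, adjusted p from 0.0558 to 0.177). With the replicate number as a block within the strain, *Slc1a4* missed the threshold with CpG in B6 (adjusted p = 0.0505). *Slc38a7* then passed it with a log2 fold change of -0.13 in B6 (adjusted p = 0.0386) and -0.16 in SjSS (adjusted p = 0.0134).

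**Figure D2:**
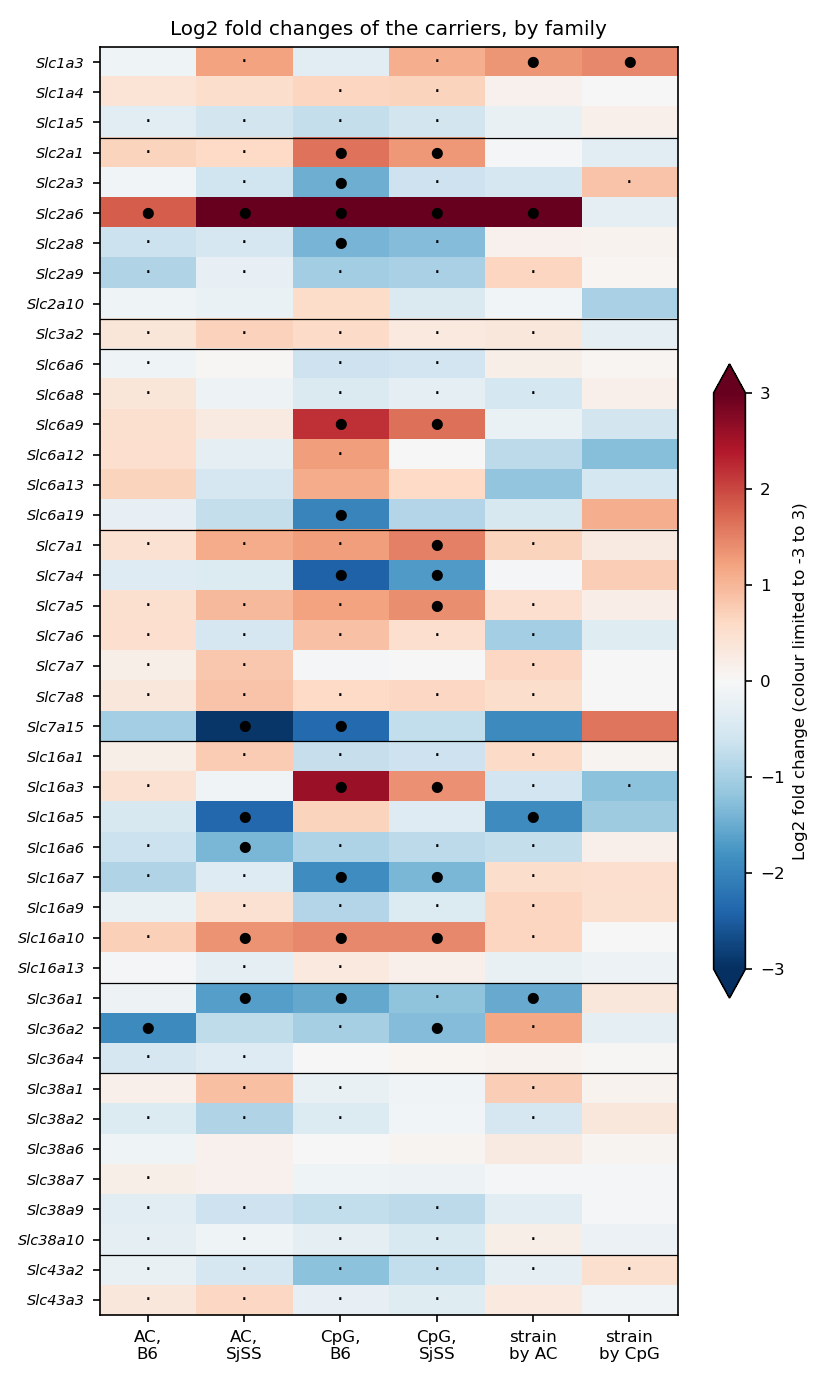
Log2 fold changes of the 42 carriers (rows, by family) for the responses to ACs and CpG in each strain and for the interactions of strain with treatment, from blue (lower) to red (higher), with colours limited at a size of 3. A large dot marks an adjusted p under 0.05 with a log2 fold change over 1.3 in size and a small dot an adjusted p under 0.05 alone. The row of *Slc2a6* is red in the first 5 columns, at 1.81 for ACs in B6 and 4.90 in SjSS.

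*Slc2a6* (GLUT6, chr2:27021363-27027999 on the minus strand, mm10) had the largest rise of the 42 carriers with ACs, and the rise was larger in SjSS than in B6. In B6 it was at 6.21, 5.01 and 7.16 CPM in control, 17.5, 25.8 and 21.5 CPM in AC treated and 60.3, 66.2 and 58.5 CPM in CpG treated BMDMs. In SjSS it was at 4.48, 6.15 and 5.28 CPM in control, 148, 164 and 157 CPM in AC treated and 41.9, 45.7 and 40.8 CPM in CpG treated BMDMs. The control samples of the strains overlapped at a low level, and with ACs all SjSS samples lay above all B6 samples, while with CpG the B6 samples were the higher ones. With ACs the log2 fold change was 1.81 ± 0.13 (adjusted p = 4.34e-09) in B6 and 4.90 ± 0.14 (adjusted p = 1.55e-15) in SjSS, a 3.51-fold and a 29.8-fold rise, and the difference between these responses was 3.09 ± 0.19 (adjusted p = 4.2e-10). With CpG the log2 fold change was 3.32 ± 0.13 (adjusted p = 1.63e-13) in B6 and 3.03 ± 0.14 (adjusted p = 1.22e-12) in SjSS, and the responses to CpG did not differ between the strains past the threshold (difference -0.30 ± 0.19, adjusted p = 0.408).

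*Slc2a1* (GLUT1), the main glucose carrier of the plasma membrane in activated macrophages, rose with both treatments in both strains. Its levels in B6 were 71.3, 71.9 and 76.4 CPM in control, 127, 113 and 107 CPM in AC treated and 231, 231 and 216 CPM in CpG treated BMDMs. In SjSS they were 63.1, 75.3 and 72.97 CPM in control, 95.01, 115 and 112 CPM in AC treated and 162, 176 and 186 CPM in CpG treated BMDMs. Control, AC treated and CpG treated samples did not overlap in either strain. The rise with ACs was 0.66 ± 0.08 (adjusted p = 3.15e-06) on the log2 scale in B6 and 0.61 ± 0.08 (adjusted p = 3.07e-06) in SjSS. With CpG it was 1.63 ± 0.08 (adjusted p = 3.76e-12) and 1.31 ± 0.08 (adjusted p = 1.15e-10). Between the strains the rise with ACs did not differ past the threshold (adjusted p = 0.767). That with CpG had a difference of -0.32 ± 0.11 (adjusted p = 0.119), and of -0.31 (adjusted p = 0.0268) with the replicate number as a block within each strain, which is past the threshold. The CpG treated SjSS samples were lower than the CpG treated B6 samples (log2 difference -0.37 ± 0.08, adjusted p = 0.0028).

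The other hexose carriers fell with CpG in both strains, apart from *Slc2a10*. *Slc2a3* (GLUT3) was at 4.95, 3.73 and 3.499 CPM in control, 3.97, 4.12 and 3.45 CPM in AC treated and 1.45, 1.25 and 1.695 CPM in CpG treated B6 BMDMs. SjSS BMDMs had *Slc2a3* at 5.01, 5.03 and 5.18 CPM in control, 3.15, 3.53 and 3.41 CPM in AC treated and 2.68, 3.48 and 3.77 CPM in CpG treated BMDMs. In B6 only the CpG treated samples lay apart from control, and in SjSS both treated groups lay below control. The fall with CpG was -1.47 ± 0.16 (adjusted p = 2.85e-07) in B6 and -0.62 ± 0.15 (adjusted p = 0.00205) in SjSS, a difference in response of 0.85 ± 0.22 (adjusted p = 0.0317). That difference missed the threshold without any 1 of B6 control replicate 1, B6 CpG replicate 1 or 2, SjSS control replicate 1, 2 or 3 or SjSS CpG replicate 2 or 3 (adjusted p from 0.0509 to 0.0889). *Slc2a3* overlaps the pseudogene *Gm4482* on the same strand, which had more counts than *Slc2a3* itself (4640 against 3050 over all samples), so the split of reads between them is uncertain. *Slc2a8* (GLUT8), another carrier of internal membranes, was at 19.3, 17.8 and 16.9 CPM in control, 12.1, 10.4 and 12.1 CPM in AC treated and 6.57, 6.84 and 7.21 CPM in CpG treated B6 BMDMs. For SjSS its values were 20.2, 21.3 and 22.8 CPM in control, 14.6, 16.3 and 14.5 CPM in AC treated and 8.59, 10.1 and 7.605 CPM in CpG treated BMDMs. Control samples were the highest and CpG treated samples the lowest in both strains, without overlap. Its log2 fold change was -0.64 and -0.50 with ACs and -1.39 and -1.29 with CpG in B6 and SjSS, with adjusted p of 0.000148 or less. *Slc2a9* (GLUT9), which carries urate, fell with ACs by 0.90 on the log2 scale in B6 and by 0.25 in SjSS (adjusted p = 2.85e-07 and 0.0229), and the fall differed between the strains (0.65 ± 0.13, adjusted p = 0.000526). The fall of *Slc2a9* in SjSS missed the threshold without any 1 of SjSS control replicate 1 or 3 or SjSS AC replicate 2 or 3 (adjusted p from 0.0585 to 0.115).

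*Slc2a10* was measured at 0.0834 to 0.799 CPM over all samples. In B6 it was at 0.288, 0.0834 and 0.213 CPM in control, 0.159, 0.208 and 0.178 CPM in AC treated and 0.403, 0.133 and 0.326 CPM in CpG treated BMDMs. The SjSS values were 0.368, 0.799 and 0.508 CPM in control, 0.646, 0.252 and 0.538 CPM in AC treated and 0.247, 0.519 and 0.457 CPM in CpG treated BMDMs. It responded to neither treatment past the threshold, and it was higher in SjSS in control (1.44 ± 0.49, adjusted p = 0.0462) and AC treated BMDMs (1.37 ± 0.51, adjusted p = 0.0334). Both calls rest on few counts: the first missed the threshold without any 1 of B6 control replicate 2 or 3 or SjSS control replicate 2 or 3 (adjusted p from 0.0848 to 0.18), and the second without any 1 of B6 AC replicate 1, 2 or 3 or SjSS AC replicate 1 or 3 (adjusted p from 0.0599 to 0.13).

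**Figure D3:**
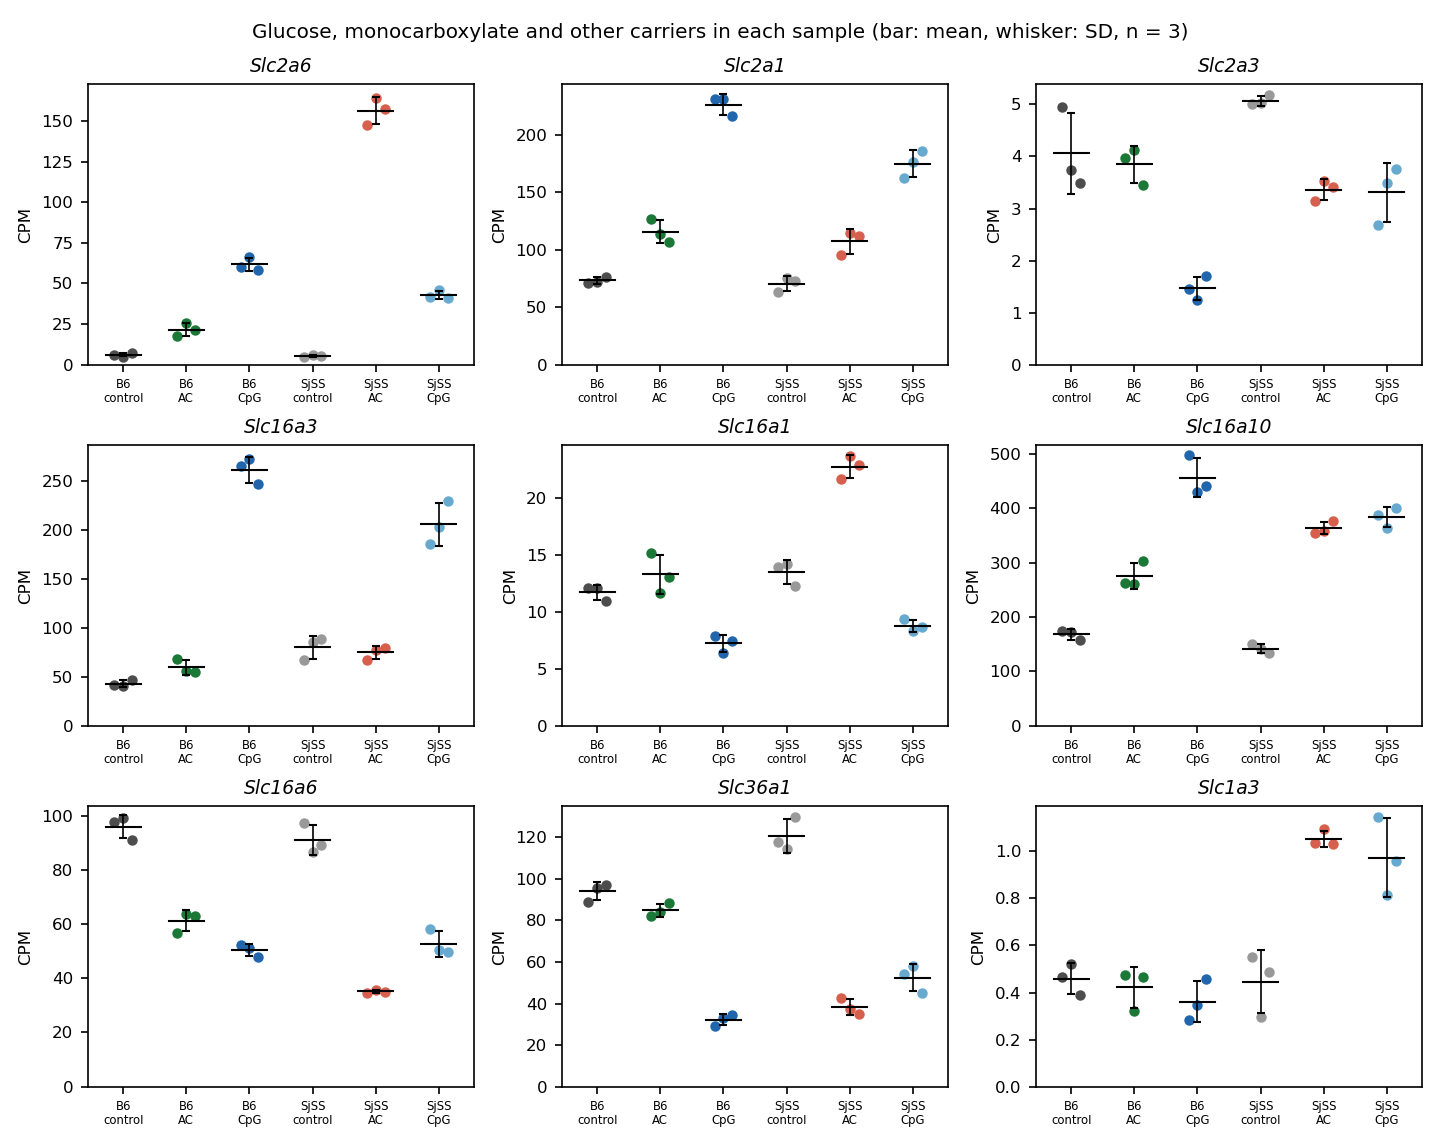
CPM of 9 carriers in each of the 18 samples, by group, with a bar for the mean and whiskers for the SD of 3 samples, on linear axes from 0. The 3 AC treated SjSS samples reach 148, 164 and 157 CPM for *Slc2a6*, above every other sample, and *Slc36a1* is low in CpG treated BMDMs of both strains and in AC treated SjSS BMDMs.

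The promoters of 3 carriers are shown to set the letters of their start regions beside the responses. *Slc2a6* and *Slc36a1* had the largest differences in AC response between the strains among carriers with a mean above 1 CPM in control B6 BMDMs. *Slc7a7* is shown because it was past the threshold with ACs and not with CpG and its window held 2 of the motifs. They were chosen after these values were seen. Each sequence runs 5′ to 3′ from 250 bases before to 50 bases after the gene's start (RefSeq, GRCm38.p6), and capitals mark matches to the motifs searched for on both strands. The *Slc2a6* promoter is chr2:27027949-27028248 on the minus strand, that of *Slc36a1* is chr11:55204090-55204389 on the plus strand, and that of *Slc7a7* is chr14:54417653-54417952 on the minus strand, 1 of 5 starts listed for this gene.
Slc2a6: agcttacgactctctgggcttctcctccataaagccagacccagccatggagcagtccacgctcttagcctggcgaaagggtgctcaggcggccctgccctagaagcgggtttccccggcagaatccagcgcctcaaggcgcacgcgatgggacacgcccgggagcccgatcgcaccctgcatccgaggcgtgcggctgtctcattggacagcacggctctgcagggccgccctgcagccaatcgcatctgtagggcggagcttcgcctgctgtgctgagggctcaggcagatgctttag
Slc36a1: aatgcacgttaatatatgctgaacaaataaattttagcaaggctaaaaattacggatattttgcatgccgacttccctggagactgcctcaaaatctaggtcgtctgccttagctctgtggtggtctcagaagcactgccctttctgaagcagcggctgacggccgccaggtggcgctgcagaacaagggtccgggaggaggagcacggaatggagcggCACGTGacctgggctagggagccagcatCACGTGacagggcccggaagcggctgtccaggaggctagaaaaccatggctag
Slc7a7: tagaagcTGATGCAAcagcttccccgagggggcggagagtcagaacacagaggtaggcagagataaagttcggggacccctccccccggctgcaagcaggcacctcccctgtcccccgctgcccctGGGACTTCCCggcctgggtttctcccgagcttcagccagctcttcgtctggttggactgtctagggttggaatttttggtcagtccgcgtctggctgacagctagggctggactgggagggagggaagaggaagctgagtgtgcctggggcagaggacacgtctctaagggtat
The motifs were the NF-kB consensus, GAAANNGAA of interferon response elements, TGANTCA of AP-1, TGATGNAA of amino acid response elements and CACGTG, an E-box. They occur in 8.46%, 8.55%, 7.81%, 3.97% and 7.15% of all 32817 promoters of this length. The *Slc2a6* window held no match to these letters. The *Slc36a1* window held CACGTG at 31 and at 3 bases before the start. The *Slc7a7* window held the NF-kB consensus, which matched on both strands at the same place, 124 bases before the start, and TGATGNAA 243 bases before it. A promoter was matched for 29 of the 42 carriers, and a match of letters says nothing of what binds there.

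Among the monocarboxylate carriers, *Slc16a3* (MCT4, chr11:120948480-120960869), which exports lactate, rose with CpG in both strains and more in B6. In B6 *Slc16a3* was at 41.9, 40.5 and 46.6 CPM in control, 68.3, 55.4 and 54.6 CPM in AC treated and 265, 272 and 246 CPM in CpG treated BMDMs. It was at 66.7, 85.3 and 88.3 CPM in control, 66.98, 77.6 and 79.8 CPM in AC treated and 185, 203 and 229 CPM in CpG treated SjSS BMDMs. Control samples were higher in SjSS than in B6 without overlap, and CpG treated samples were higher in B6 without overlap. The log2 fold change with CpG was 2.60 ± 0.11 (adjusted p = 4.35e-13) in B6 and 1.36 ± 0.11 (adjusted p = 3.17e-09) in SjSS. The responses differed by -1.24 ± 0.15 (adjusted p = 8.95e-05). With ACs it rose in B6 (0.47 ± 0.11, adjusted p = 0.00207), the SjSS value was -0.10 ± 0.11 (adjusted p = 0.462), and these responses differed by -0.56 ± 0.15 (adjusted p = 0.00684). In control BMDMs the strain difference was 0.90 ± 0.11 (adjusted p = 1.39e-05). The strain difference in CpG treated BMDMs was -0.34 ± 0.11 (adjusted p = 0.0273). It missed the threshold without any 1 of B6 CpG replicate 1 or 2 or SjSS CpG replicate 1 or 2 (adjusted p from 0.0696 to 0.129).

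*Slc16a1* (MCT1), which carries lactate in either direction, lies at chr3:104638668-104658463 and is the only carrier on chromosome 3, while none lies on chromosome 1. *Slc16a1* was at 12.1, 12.1 and 10.9 CPM in control, 15.1, 11.7 and 13.02 CPM in AC treated and 7.82, 6.42 and 7.41 CPM in CpG treated B6 BMDMs. SjSS BMDMs had it at 13.9, 14.2 and 12.3 CPM in control, 21.6, 23.6 and 22.8 CPM in AC treated and 9.33, 8.33 and 8.66 CPM in CpG treated BMDMs. The highest samples were AC treated SjSS, AC treated B6 samples overlapped with control, and CpG treated samples were the lowest of their strain. The response to ACs was 0.76 ± 0.10 (adjusted p = 1.47e-06) in SjSS and 0.18 ± 0.10 (adjusted p = 0.153) in B6, with a difference of 0.57 ± 0.14 (adjusted p = 0.00256). CpG lowered it in both strains, by 0.69 in B6 and 0.62 in SjSS on the log2 scale (adjusted p = 7.68e-06 and 3.23e-05). Control samples did not differ between strains past the threshold (0.20 ± 0.10, adjusted p = 0.157). Of the 115 genes tested within 5 Mb of *Slc16a1*, 25 (21.7%) differed between control BMDMs of the strains, where 19.6% of all genes did.

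*Slc16a10* (TAT1), a carrier of aromatic amino acids, rose with both treatments in both strains. B6 BMDMs had *Slc16a10* at 174, 173 and 157 CPM in control, 262, 260.0 and 302 CPM in AC treated and 497, 431 and 440.4 CPM in CpG treated BMDMs. Its level in SjSS was 151, 141 and 134 CPM in control, 355, 359 and 376 CPM in AC treated and 387, 364 and 401 CPM in CpG treated BMDMs. Each treated group lay above its control without overlap. The rise with ACs was 0.71 ± 0.07 (adjusted p = 2.38e-07) in B6 and 1.36 ± 0.07 (adjusted p = 6.04e-12) in SjSS, a difference of 0.65 ± 0.10 (adjusted p = 4.91e-05). With CpG it was 1.44 ± 0.07 and 1.44 ± 0.07 (adjusted p = 3.01e-12 and 4.94e-12). *Slc16a6* (MCT7) went the other way. In B6 *Slc16a6* was at 97.5, 99.04 and 91.2 CPM in control, 56.9, 63.7 and 63.1 CPM in AC treated and 52.2, 51.3 and 47.8 CPM in CpG treated BMDMs. In SjSS the values were 97.1, 86.6 and 89.03 CPM in control, 34.6, 35.7 and 35.1 CPM in AC treated and 58.2, 50.3 and 49.7 CPM in CpG treated BMDMs. Control samples were highest in both strains, and the AC treated SjSS samples were lower than all other samples. It fell with ACs by 0.65 in B6 and 1.37 in SjSS on the log2 scale, a difference in response of -0.72 ± 0.09 (adjusted p = 6.61e-06). CpG lowered it by 0.93 and 0.79 (adjusted p = 6.31e-10 and 8.63e-09). *Slc16a6* overlaps *Amz2* and *Arsg* on the opposite strand, with 25539 and 3951 counts against its 56256, and whether the counting used strand is not given in the sources used here.

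*Slc16a7* (MCT2) had a mean of 28.4 CPM in control B6 BMDMs, and *Slc16a5* had 0.899 CPM. *Slc16a7* was at 30.3, 29.3 and 25.5 CPM in control, 13.9, 14.3 and 17.4 CPM in AC treated and 7.68, 6.47 and 9.06 CPM in CpG treated B6 BMDMs. In SjSS *Slc16a7* was at 28.3, 21.2 and 20.3 CPM in control, 19.1, 18.1 and 16.5 CPM in AC treated and 10.7, 8.33 and 8.08 CPM in CpG treated BMDMs. Samples of the 3 treatments did not overlap in either strain, with control highest and CpG lowest. Its fall with CpG was -1.87 ± 0.14 (adjusted p = 1.64e-09) in B6 and -1.37 ± 0.14 (adjusted p = 1.52e-07) in SjSS. With ACs it was -0.90 ± 0.14 (adjusted p = 3.53e-05) and -0.38 ± 0.14 (adjusted p = 0.0243), and the latter missed the threshold without SjSS control replicate 1 (adjusted p = 0.206), SjSS AC replicate 2 (adjusted p = 0.0516) or SjSS AC replicate 3 (adjusted p = 0.0954). *Slc16a5* was at 0.897, 0.647 and 1.15 CPM in control, 0.695, 0.624 and 0.624 CPM in AC treated and 1.29, 1.52 and 1.48 CPM in CpG treated B6 BMDMs. It had 1.82, 1.18 and 1.45 CPM in control, 0.258, 0.357 and 0.247 CPM in AC treated and 0.652, 1.53 and 1.23 CPM in CpG treated SjSS BMDMs. The AC treated SjSS samples were lower than every other sample. Their difference from control was -2.36 ± 0.32 (adjusted p = 4.11e-06), the B6 value was -0.48 ± 0.30 (adjusted p = 0.224), and the responses differed by -1.88 ± 0.44 (adjusted p = 0.00237). *Slc16a9* rose with ACs in SjSS (0.46 ± 0.13, adjusted p = 0.00451) and not past the threshold in B6 (-0.20 ± 0.12, adjusted p = 0.231), with a difference of 0.66 ± 0.18 (adjusted p = 0.00671), and it fell with CpG in both strains. *Slc16a13* was at 6.204 to 10.6 CPM in all samples, and its calls, lower with ACs in SjSS (-0.28) and higher with CpG in B6 (0.30), had adjusted p of 0.039 and 0.0251. The first missed the threshold with DESeq2 size factors (adjusted p = 0.0571), with DESeq2 (adjusted p = 0.0594) and with only the compared groups in the fit, and both missed it in some fits without 1 sample.

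The heavy chain *Slc3a2* and its light chains *Slc7a5*, *Slc7a7* and *Slc7a8* rose with ACs in both strains. *Slc3a2*, at chr19:8706882-8723370, had 319, 354 and 362 CPM in control, 439.7, 441 and 444 CPM in AC treated and 528, 539 and 484 CPM in CpG treated B6 BMDMs. The SjSS samples had *Slc3a2* at 319, 363 and 328 CPM in control, 531, 547 and 558 CPM in AC treated and 399.9, 423 and 417 CPM in CpG treated BMDMs. No treated sample fell within the range of its strain's controls, and the highest samples were AC treated in SjSS and CpG treated in B6. The rise with ACs was 0.36 ± 0.06 (adjusted p = 0.000101) in B6 and 0.69 ± 0.06 (adjusted p = 8.21e-09) in SjSS, and it was larger in SjSS by 0.34 ± 0.08 (adjusted p = 0.00401). With CpG it was 0.58 ± 0.06 (adjusted p = 8.96e-08) and 0.30 ± 0.06 (adjusted p = 0.000358), and the difference between these, -0.29 ± 0.08 (adjusted p = 0.0516), was outside the threshold. It passed with DESeq2 size factors (adjusted p = 0.0414), with DESeq2 (adjusted p = 0.00837) and with the replicate number as a block over all samples (adjusted p = 0.0353) or within strain (adjusted p = 0.0317).

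*Slc7a8* (LAT2), which carries large neutral amino acids, was more abundant than the light chains *Slc7a5*, *Slc7a6* and *Slc7a7*. It was at 369, 362 and 363 CPM in control, 439, 455 and 484 CPM in AC treated and 568, 567 and 527 CPM in CpG treated B6 BMDMs. SjSS samples had *Slc7a8* at 346, 352 and 359 CPM in control, 617, 616 and 679.5 CPM in AC treated and 548, 522 and 558 CPM in CpG treated BMDMs. Treated samples of both kinds were above control in each strain, and AC treated samples were above CpG treated samples in SjSS and below them in B6. The rise with ACs was 0.33 ± 0.05 (adjusted p = 6.42e-05) in B6 and 0.85 ± 0.05 (adjusted p = 7.58e-11) in SjSS, a difference of 0.52 ± 0.08 (adjusted p = 2.29e-05). CpG gave rises of 0.60 and 0.62 (adjusted p = 1.17e-08 and 1.02e-08). Of the summed level of *Slc7a5*, *Slc7a6*, *Slc7a7* and *Slc7a8* in CPM per kb, *Slc7a8* made 81.2% ± 0.171 (SD, n = 3) in control B6 and 84.7% ± 0.768 in CpG treated SjSS, the lowest and highest group means. That sum was 89.7 ± 0.885 CPM per kb in control B6 and 151 ± 7.55 in AC treated SjSS, beside 97.7 ± 6.52 and 154 ± 3.87 for *Slc3a2*. It holds no Slc7 gene outside the rule, such as *Slc7a11*.

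*Slc7a7* (y+LAT1), which exchanges cationic for neutral amino acids, rose with ACs in both strains. *Slc7a7* was at 41.7, 42.6 and 40.99 CPM in control, 48.8, 48.6 and 44.1 CPM in AC treated and 43.4, 40.6 and 38.96 CPM in CpG treated B6 BMDMs. In SjSS it stood at 31.3, 33.7 and 36.6 CPM in control, 58.3, 61.01 and 57.8 CPM in AC treated and 32.9, 33.2 and 35.1 CPM in CpG treated BMDMs. The 3 AC treated SjSS samples were the highest, control SjSS samples were below all control B6 samples, and CpG treated samples overlapped with control in both strains. The rise with ACs was 0.80 ± 0.06 (adjusted p = 1.7e-09) in SjSS and 0.17 ± 0.06 (adjusted p = 0.0313) in B6. These responses differed by 0.63 ± 0.09 (adjusted p = 1.47e-05). In B6 it missed the threshold without any 1 of B6 control replicate 1 or 3 or B6 AC replicate 1 or 2 (adjusted p from 0.0712 to 0.113). With CpG the log2 fold change was -0.03 ± 0.06 (adjusted p = 0.726) in B6 and -0.01 ± 0.06 (adjusted p = 0.937) in SjSS, and the control difference between strains was -0.30 ± 0.06 (adjusted p = 0.00213). *Oxa1l* overlaps *Slc7a7* on the opposite strand and had 29108 counts against 36364.

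*Slc7a6* (y+LAT2), a light chain of the same kind, was the carrier that moved in opposite directions with ACs in the strains. *Slc7a6* was at 11.1, 10.95 and 11.2 CPM in control, 15.7, 16.95 and 14.8 CPM in AC treated and 22.6, 17.6 and 21.1 CPM in CpG treated B6 BMDMs. The SjSS values of *Slc7a6* were 13.9, 13.2 and 12.3 CPM in control, 9.07, 9.46 and 9.198 CPM in AC treated and 17, 19.2 and 19.8 CPM in CpG treated BMDMs. With ACs all 3 B6 samples lay above and all 3 SjSS samples below their controls, and with CpG all 6 samples lay above. The response to ACs was 0.51 ± 0.09 (adjusted p = 0.00014) in B6 and -0.50 ± 0.09 (adjusted p = 0.000107) in SjSS, a difference of -1.01 ± 0.13 (adjusted p = 4.14e-06). CpG raised it by 0.88 in B6 and 0.51 in SjSS on the log2 scale (adjusted p = 6.67e-08 and 7.08e-05). Its share of the light-chain sum was 3.097% ± 0.265 in AC treated B6 and 1.34% ± 0.0734 in AC treated SjSS BMDMs.

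*Slc7a5* (LAT1), the leucine carrier known for feeding mTORC1, was at 7.16, 6.32 and 6.89 CPM in control, 10.4, 9.08 and 9.09 CPM in AC treated and 17.5, 15.3 and 14.4 CPM in CpG treated B6 BMDMs. SjSS BMDMs gave *Slc7a5* values of 7.28, 7.75 and 7.78 CPM in control, 12.1, 15.5 and 17.3 CPM in AC treated and 18.2, 18.7 and 23.3 CPM in CpG treated BMDMs. Each treated group was above its control without overlap. The rise was 0.49 ± 0.12 (adjusted p = 0.00428) in B6 and 0.98 ± 0.12 (adjusted p = 1.39e-06) in SjSS with ACs and 1.21 ± 0.12 (adjusted p = 7.45e-08) and 1.40 ± 0.12 (adjusted p = 1.32e-08) with CpG. The larger AC response in SjSS (0.49 ± 0.17, adjusted p = 0.0327) missed the threshold without any 1 of B6 control replicate 1 or 3, B6 AC replicate 2 or 3, SjSS control replicate 1 or SjSS AC replicate 2 or 3 (adjusted p from 0.0577 to 0.106). *Gm20388* overlaps *Slc7a5* on the opposite strand and had 32546 counts against 10299, so the count of *Slc7a5* is uncertain. *Slc7a1* (CAT1), which carries arginine and lysine without a heavy chain, was at 15.4, 15 and 14.9 CPM in control, 21.8, 18.5 and 21.9 CPM in AC treated and 45.3, 29.1 and 33.1 CPM in CpG treated B6 BMDMs. The values of *Slc7a1* in SjSS were 11.5, 11.4 and 11.3 CPM in control, 23.3, 23.8 and 27.7 CPM in AC treated and 33.3, 29.9 and 34.9 CPM in CpG treated BMDMs. Treated samples were above control throughout, and CpG treated B6 replicate 1 stood above the other samples. The rise with ACs was 0.46 ± 0.12 (adjusted p = 0.00549) in B6 and 1.12 ± 0.12 (adjusted p = 2.37e-07) in SjSS, with a difference of 0.67 ± 0.17 (adjusted p = 0.00494). The rise with CpG was 1.25 ± 0.12 (adjusted p = 3.67e-08) and 1.52 ± 0.12 (adjusted p = 4.71e-09).

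*Slc7a4* and *Slc7a15* had few counts and fell with CpG in B6. *Slc7a4*, a relative of the cationic amino acid carriers, was at 3.41, 3.02 and 2.75 CPM in control, 3.22, 1.89 and 1.96 CPM in AC treated and 0.685, 0.426 and 0.565 CPM in CpG treated B6 BMDMs. *Slc7a4* had 1.79, 0.858 and 2.28 CPM in control, 1.24, 1.28 and 1.28 CPM in AC treated and 0.315, 0.717 and 0.525 CPM in CpG treated SjSS BMDMs. CpG treated samples were below control in both strains without overlap. The fall with CpG was -2.43 ± 0.32 (adjusted p = 2.34e-06) in B6 and -1.70 ± 0.34 (adjusted p = 0.00027) in SjSS. *P2rx6* overlaps the gene on the opposite strand with 433 counts against 1422. *Slc7a15* was at 0.528, 0.313 and 0.213 CPM in control, 0.278, 0.151 and 0.0891 CPM in AC treated and 0, 0.0533 and 0.152 CPM in CpG treated B6 BMDMs. *Slc7a15* had 0.626, 0.414 and 0.544 CPM in control, 0.0258, 0.126 and 0.0449 CPM in AC treated and 0.3598, 0.420 and 0.183 CPM in CpG treated SjSS BMDMs. AC treated SjSS samples (-2.92 ± 0.69, adjusted p = 0.00119) and CpG treated B6 samples (-2.34 ± 0.70, adjusted p = 0.00766) were below their controls without overlap. The sizes depend on single samples: the first was -3.80 without AC treated SjSS replicate 2, and the second was -1.71 without CpG treated B6 replicate 1 and -3.77 without replicate 3 (adjusted p = 0.00156, 0.0384 and 0.00196).

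**Figure D4:**
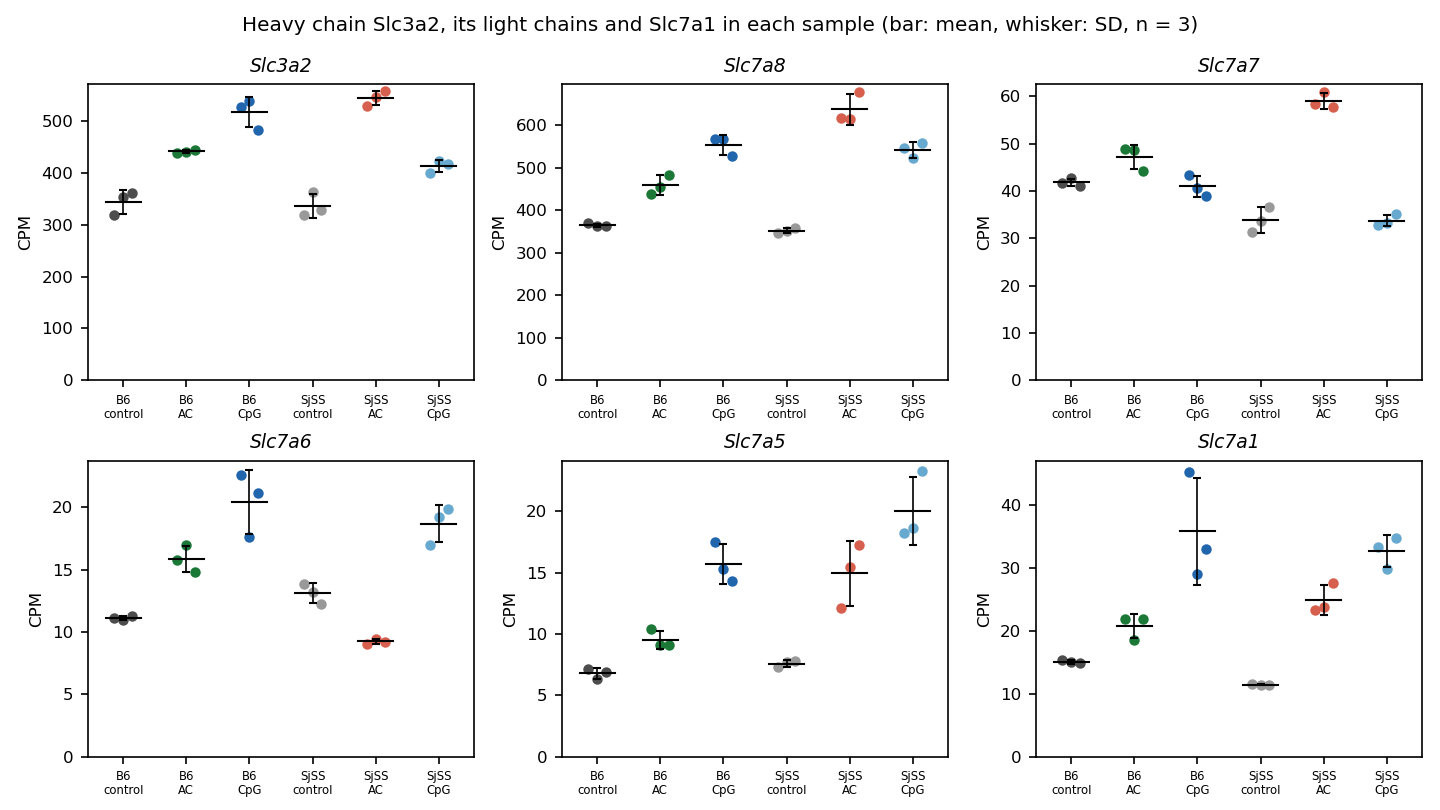
CPM of the heavy chain *Slc3a2*, 4 of its light chains and *Slc7a1* in each of the 18 samples, by group, with a bar for the mean and whiskers for the SD of 3 samples, on linear axes from 0. AC treated SjSS samples are the highest for *Slc3a2*, *Slc7a7* and *Slc7a8* among the SjSS groups, and the lowest of all for *Slc7a6* at 9.07, 9.46 and 9.198 CPM.

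*Slc36a1* (PAT1, chr11:55204350-55236331), a proton-coupled carrier of small amino acids in the lysosomal membrane, fell with CpG in both strains and with ACs in SjSS. It was at 89.01, 95.7 and 97.2 CPM in control, 82.2, 83.9 and 88.3 CPM in AC treated and 29.3, 32.9 and 34.6 CPM in CpG treated B6 BMDMs. In SjSS *Slc36a1* was at 118, 114 and 129.7 CPM in control, 42.6, 37.6 and 35.02 CPM in AC treated and 54.3, 58.01 and 45.1 CPM in CpG treated BMDMs. AC treated SjSS samples lay far below their controls, whereas in B6 the AC treated samples lay just below the lowest control. The response to ACs was -1.65 ± 0.09 (adjusted p = 7.78e-12) in SjSS and -0.15 ± 0.09 (adjusted p = 0.194) in B6, and the difference was -1.50 ± 0.12 (adjusted p = 1.68e-08). CpG lowered it by 1.54 in B6 and 1.20 in SjSS on the log2 scale (adjusted p = 2.64e-11 and 1.01e-09). Control SjSS BMDMs had the higher level (0.36 ± 0.09, adjusted p = 0.00657). *Slc38a9*, which senses arginine at the lysosome, was at 18.2, 16.3 and 17.2 CPM in control, 13.1, 14.5 and 14.2 CPM in AC treated and 9.47, 9.64 and 11.8 CPM in CpG treated B6 BMDMs. *Slc38a9* had 20.9, 19.2 and 19.6 CPM in control, 14.9, 11.4 and 12.3 CPM in AC treated and 11.6, 11.6 and 11.6 CPM in CpG treated SjSS BMDMs. It was below control in all 12 treated samples. The fall with ACs was -0.31 ± 0.09 (adjusted p = 0.0138) in B6 and -0.63 ± 0.10 (adjusted p = 1.23e-05) in SjSS. With CpG it was -0.74 ± 0.10 (adjusted p = 1.77e-06) and -0.78 ± 0.10 (adjusted p = 1.15e-06). The B6 fall with ACs missed the threshold without B6 control replicate 1 (adjusted p = 0.0604) or B6 AC replicate 1 (adjusted p = 0.0628).

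*Slc36a2* (PAT2), which lies 19.3 kb from *Slc36a1* on the opposite strand, was lower in SjSS in control and CpG treated BMDMs. B6 BMDMs had *Slc36a2* at 11.2, 10.95 and 9.91 CPM in control, 4.29, 1.51 and 2.79 CPM in AC treated and 5.52, 6.02 and 4.45 CPM in CpG treated BMDMs. SjSS BMDMs had 2.28, 4.35 and 4.605 CPM in control, 1.395, 2.69 and 2.49 CPM in AC treated and 0.9895, 1.95 and 1.599 CPM in CpG treated BMDMs. Control B6 samples were above all others. The strain difference was -1.52 ± 0.30 (adjusted p = 0.00149) in control and -1.82 ± 0.34 (adjusted p = 0.000711) in CpG treated BMDMs. It fell with ACs in B6 (-1.90 ± 0.30, adjusted p = 5.98e-05), and the SjSS value was -0.75 ± 0.32 (adjusted p = 0.0557). The difference of 1.15 ± 0.44 (adjusted p = 0.0479) missed the threshold with DESeq2 (adjusted p = 0.0742) and without any 1 of B6 control replicate 1, 2 or 3, B6 AC replicate 2 or 3, SjSS control replicate 1 or SjSS AC replicate 2 or 3 (adjusted p from 0.0579 to 0.136). The fall with CpG was -1.01 ± 0.29 (adjusted p = 0.00617) in B6 and -1.303 ± 0.34 (adjusted p = 0.00311) in SjSS. *Slc36a4* (PAT4) fell with ACs by 0.49 in B6 and 0.38 in SjSS on the log2 scale (adjusted p = 0.000157 and 0.001). Its CpG values were 0.02 and 0.05, not past the threshold. *Slc38a7*, which carries glutamine at the lysosome, stayed between 56.1 and 83.5 CPM, and its rise with ACs in B6 (0.19 ± 0.07, adjusted p = 0.0402) missed the threshold without any 1 of B6 control replicate 1 or 2 or B6 AC replicate 2 or 3 (adjusted p from 0.0526 to 0.167).

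The neutral amino acid carriers *Slc38a1* (SNAT1) and *Slc38a2* (SNAT2) are neighbours on chromosome 15, 44.5 kb apart on the same strand, and moved in opposite directions with ACs in SjSS. *Slc38a1* was at 77.4, 81.1 and 72.4 CPM in control, 83.6, 84.9 and 86.9 CPM in AC treated and 70.3, 63.6 and 63.6 CPM in CpG treated B6 BMDMs. In SjSS *Slc38a1* had 79.2, 69.2 and 70.99 CPM in control, 142, 122 and 144 CPM in AC treated and 70.4, 67.4 and 65.4 CPM in CpG treated BMDMs. All other samples were below those of AC treated SjSS BMDMs. The response to ACs was 0.89 ± 0.07 (adjusted p = 1.42e-09) in SjSS and 0.15 ± 0.07 (adjusted p = 0.103) in B6, with a difference of 0.75 ± 0.10 (adjusted p = 5.73e-06). *Slc38a2* was at 65.8, 62.7 and 54.7 CPM in control, 46.8, 40.2 and 50.9 CPM in AC treated and 53.5, 38.98 and 44.9 CPM in CpG treated B6 BMDMs. In SjSS *Slc38a2* had 59.5, 68.1 and 47.6 CPM in control, 31.4, 29.1 and 32.5 CPM in AC treated and 58.5, 57.6 and 48.8 CPM in CpG treated BMDMs. AC treated SjSS samples were the lowest of all 18 samples. *Slc38a2* fell with ACs in SjSS (-0.91 ± 0.13, adjusted p = 5.22e-06) and in B6 (-0.41 ± 0.12, adjusted p = 0.0136). The B6 fall missed the threshold without B6 control replicate 1 (adjusted p = 0.0599) or B6 AC replicate 2 (adjusted p = 0.083). The difference between these falls was -0.50 ± 0.18 (adjusted p = 0.0338). This call was lost without any 1 of B6 control replicate 3, B6 AC replicate 1 or 3, SjSS control replicate 1 or 2 or SjSS AC replicate 1 or 2 (adjusted p from 0.0549 to 0.108). With CpG *Slc38a1* and *Slc38a2* fell in B6 by 0.22 and 0.41 on the log2 scale (adjusted p = 0.00882 and 0.00816), and their SjSS values were -0.11 and -0.08. The *Slc38a2* fall with CpG in B6 missed the threshold without B6 CpG replicate 2 (adjusted p = 0.0547).

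*Slc43a2* (LAT4), among the most abundant carriers, fell with both treatments. *Slc43a2* was at 1157, 1168 and 1137 CPM in control, 1007, 1017 and 953 CPM in AC treated and 459, 509.7 and 514 CPM in CpG treated B6 BMDMs. Its SjSS values were 1053, 1050.0 and 1111 CPM in control, 767, 732 and 761 CPM in AC treated and 636, 699 and 576 CPM in CpG treated BMDMs. All treated samples were below the controls of their strain, and CpG treated B6 samples were the lowest. The fall with ACs was -0.22 ± 0.06 (adjusted p = 0.0108) in B6 and -0.51 ± 0.06 (adjusted p = 1.29e-06) in SjSS. CpG gave falls of -1.22 ± 0.06 (adjusted p = 6.2e-12) and -0.75 ± 0.06 (adjusted p = 8.44e-09). Both responses differed between the strains, in opposite directions (-0.29 ± 0.09, adjusted p = 0.0158 for ACs and 0.47 ± 0.09, adjusted p = 0.00383 for CpG), and the AC response in B6 missed the threshold without B6 AC replicate 3 (adjusted p = 0.0553). An antisense gene overlaps *Slc43a2*, with 15283 counts against 739223. *Slc43a3*, a carrier of purine bases in the same family, was at 17.2, 16 and 14.9 CPM in control, 24.2, 17.8 and 18.8 CPM in AC treated and 14.6, 13.2 and 12.8 CPM in CpG treated B6 BMDMs. *Slc43a3* had 15.5, 15.6 and 18.1 CPM in control, 24.7, 25.6 and 25.9 CPM in AC treated and 12.3, 13.7 and 12.4 CPM in CpG treated SjSS BMDMs. AC treated samples were above control and CpG treated samples below it in both strains. It rose with ACs (0.34 ± 0.10, adjusted p = 0.0117 in B6 and 0.63 ± 0.10, adjusted p = 2.39e-05 in SjSS) and fell with CpG (-0.24 ± 0.10, adjusted p = 0.0479 and -0.36 ± 0.10, adjusted p = 0.00622). In B6 the rise missed the threshold without B6 control replicate 3 (adjusted p = 0.0573) or B6 AC replicate 1 (adjusted p = 0.115) and the fall with DESeq2 (adjusted p = 0.085) and without any 1 of B6 control replicate 1 or 2 or B6 CpG replicate 2 or 3 (adjusted p from 0.0828 to 0.177).

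*Slc1a5* (ASCT2), the glutamine carrier, fell with both treatments. *Slc1a5* was at 11.6, 10.01 and 10.6 CPM in control, 9.27, 8.06 and 8.29 CPM in AC treated and 6.59, 5.83 and 7.28 CPM in CpG treated B6 BMDMs. *Slc1a5* in SjSS was at 12.5, 12.9 and 15.6 CPM in control, 8.29, 9.32 and 10.3 CPM in AC treated and 8.88, 9.29 and 9.73 CPM in CpG treated BMDMs. Control samples were the highest of their strain. The fall with ACs was -0.33 ± 0.11 (adjusted p = 0.0203) in B6 and -0.56 ± 0.11 (adjusted p = 0.000183) in SjSS. The CpG values were -0.71 ± 0.11 (adjusted p = 1.72e-05) and -0.56 ± 0.11 (adjusted p = 0.000208). The B6 fall with ACs missed the threshold without B6 control replicate 1 (adjusted p = 0.0925), B6 AC replicate 2 (adjusted p = 0.0846) or B6 AC replicate 3 (adjusted p = 0.0666). *Slc1a3*, a glutamate carrier, was at 0.464, 0.521 and 0.391 CPM in control, 0.477, 0.322 and 0.468 CPM in AC treated and 0.282, 0.346 and 0.456 CPM in CpG treated B6 BMDMs. *Slc1a3* had 0.553, 0.296 and 0.489 CPM in control, 1.03, 1.09 and 1.03 CPM in AC treated and 1.15, 0.815 and 0.959 CPM in CpG treated SjSS BMDMs. Both treated SjSS groups were above control, and the B6 groups overlapped. In SjSS it rose with ACs (1.20 ± 0.28, adjusted p = 0.00116) and CpG (1.09 ± 0.28, adjusted p = 0.00293), the B6 values were -0.12 and -0.34, and the differences in response were 1.32 ± 0.41 (adjusted p = 0.0153) and 1.43 ± 0.41 (adjusted p = 0.0486). The second of these missed the threshold with DESeq2 size factors (adjusted p = 0.0507), with no filter on low counts and with only the compared groups in the fit. It also missed it with the replicate number as a block over all samples (adjusted p = 0.0523) or within strain (adjusted p = 0.0529), and DESeq2 gave it no adjusted p. The same call was lost without any 1 of B6 control replicate 1, 2 or 3, B6 CpG replicate 1 or 2, SjSS control replicate 2 or 3 or SjSS CpG replicate 1, 2 or 3 (adjusted p from 0.0505 to 0.127). *Slc1a4* (ASCT1) stayed between 0.709 and 2.31 CPM, and its rise with CpG was 0.65 ± 0.25 (adjusted p = 0.034) in B6 and 0.66 ± 0.24 (adjusted p = 0.0281) in SjSS.

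Of the 6 Slc6 carriers of taurine, creatine, glycine and related molecules, 2 rose and 3 fell with CpG in B6 (all genes 28.1% and 29.8%) and 1 rose and 2 fell in SjSS (all genes 27.8% and 26.4%). With ACs 1 rose (*Slc6a8*) and 1 fell (*Slc6a6*) in B6 (all genes 20% and 18.3%). The taurine carrier *Slc6a6* ranged from 775 to 1242 CPM, and CpG lowered it by 0.63 in B6 and 0.57 in SjSS on the log2 scale (adjusted p = 7.85e-10 and 4.17e-09). The creatine carrier *Slc6a8* ranged from 97.2 to 218 CPM and rose with ACs in B6 (0.37 ± 0.11, adjusted p = 0.0129), with an SjSS value of -0.16 ± 0.11 (adjusted p = 0.247) and a difference of -0.53 ± 0.16 (adjusted p = 0.013). The B6 rise missed the threshold without B6 control replicate 1 (adjusted p = 0.0831). With CpG *Slc6a8* fell in B6 (-0.44 ± 0.11, adjusted p = 0.00251) and in SjSS (-0.28 ± 0.11, adjusted p = 0.0402), and the latter missed the threshold without any 1 of SjSS control replicate 1 or 2 or SjSS CpG replicate 1 or 3 (adjusted p from 0.0801 to 0.177). *Slc6a9* (GlyT1), a glycine carrier, was at 0.801, 0.939 and 0.959 CPM in control, 1.31, 1.32 and 1.11 CPM in AC treated and 4.27, 4.101 and 4.04 CPM in CpG treated B6 BMDMs. *Slc6a9* had 0.755, 1.27 and 1.41 CPM in control, 0.904, 1.89 and 1.301 CPM in AC treated and 2.63, 3.68 and 4.45 CPM in CpG treated SjSS BMDMs. CpG treated samples were above all others in both strains. Its rise with CpG was 2.20 ± 0.25 (adjusted p = 4.12e-07) in B6 and 1.65 ± 0.25 (adjusted p = 1.72e-05) in SjSS. *B4galt2* and *Ccdc24* overlap it on the opposite strand with 838 and 95 counts against 1692.

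The remaining Slc6 carriers had about 1 CPM or less in most samples. *Slc6a12*, a betaine and GABA carrier, was at 0.576, 0.417 and 0.444 CPM in control, 0.993, 0.322 and 0.758 CPM in AC treated and 1.31, 1.09 and 1.06 CPM in CpG treated B6 BMDMs. *Slc6a12* had 0.516, 0.414 and 0.2901 CPM in control, 0.207, 0.568 and 0.224 CPM in AC treated and 0.292, 0.395 and 0.525 CPM in CpG treated SjSS BMDMs. CpG treated B6 samples were above the B6 controls and the CpG treated SjSS samples (1.26 ± 0.39, adjusted p = 0.00976 and, for the strain difference, -1.51 ± 0.41, adjusted p = 0.0131). The strain difference missed the threshold without SjSS CpG replicate 1 (adjusted p = 0.0664). *Slc6a13*, its neighbour 5.3 kb away, was at 0.384, 0.501 and 0.426 CPM in control, 0.953, 0.833 and 0.267 CPM in AC treated and 0.665, 1.04 and 1.15 CPM in CpG treated B6 BMDMs. *Slc6a13* had 0.239, 0.237 and 0.399 CPM in control, 0.155, 0.105 and 0.359 CPM in AC treated and 0.135, 0.840 and 0.388 CPM in CpG treated SjSS BMDMs. AC treated samples of the strains overlapped, with a difference of -1.73 ± 0.58 (adjusted p = 0.0185) that missed the threshold without any 1 of B6 AC replicate 1 or 2 or SjSS AC replicate 1 or 2 (adjusted p from 0.0588 to 0.0884) and was -2.401 without AC treated SjSS replicate 3 (adjusted p = 0.00948). *Slc6a19*, a neutral amino acid carrier known from gut and kidney, was at 0.689, 2.04 and 1.23 CPM in control, 1.15, 1.15 and 0.981 CPM in AC treated and 0.141, 0.2396 and 0.608 CPM in CpG treated B6 BMDMs. *Slc6a19* had 0.737, 1.24 and 0.743 CPM in control, 0.439, 0.631 and 0.538 CPM in AC treated and 0.6297, 0.568 and 0.251 CPM in CpG treated SjSS BMDMs. CpG treated B6 samples were below control (-1.98 ± 0.46, adjusted p = 0.00117), and the value was -2.79 without CpG treated B6 replicate 3 (adjusted p = 0.000171).

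In control BMDMs 11 of the 42 carriers differed between the strains, 11.9% higher and 14.3% lower in SjSS. There were 5 higher in SjSS (*Slc16a3*, *Slc1a5*, *Slc2a10*, *Slc36a1* and *Slc38a10*) and 6 lower (*Slc16a10*, *Slc16a9*, *Slc36a2*, *Slc7a1*, *Slc7a4* and *Slc7a7*), beside 9.04% and 10.6% of all genes. Past the fold threshold were *Slc2a10* (higher) and *Slc36a2* (lower), where the shares of all genes were 1.3% and 0.716%. Leaving out 1 sample, 6 of the 11 calls missed the threshold at least once (*Slc16a10*, *Slc1a5*, *Slc2a10*, *Slc38a10*, *Slc7a1* and *Slc7a4*, adjusted p from 0.0511 to 0.18), and the calls that did not were *Slc7a7*, *Slc16a3*, *Slc16a9*, *Slc36a1* and *Slc36a2*. The 3 control B6 and 3 control SjSS samples of *Slc16a9* were 13.7, 14.4 and 12.3 and 8.25, 8.31 and 11.1 CPM (-0.54 ± 0.13, adjusted p = 0.00554).

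With ACs, 16 carriers were higher and 9 lower in SjSS than in B6, beside 24% and 25.5% of all genes. With the fold threshold 3 were higher (*Slc1a3*, *Slc2a10* and *Slc2a6*) and 1 lower (*Slc6a13*), beside 6.24% and 2.69%. The widest of these gaps was that of *Slc2a6*, 2.86 ± 0.12 (adjusted p = 9.68e-13). Among carriers with a mean above 1 CPM in control B6 BMDMs *Slc36a1* had the lowest value (-1.14 ± 0.09, adjusted p = 3.27e-09). The response itself differed between the strains for 23 carriers: 15 had the higher log2 response in SjSS and 8 the lower, beside 19.6% and 18.3% of all genes. Past the fold threshold were *Slc1a3* and *Slc2a6* (higher) and *Slc16a5* and *Slc36a1* (lower), where the shares were 4.76% and 2.77%. The median interaction of the carriers was 0.04, against -0.01 over all genes. With 1 sample left out, 7 of the 25 calls of the strain difference missed the threshold at least once (*Slc16a3*, *Slc1a4*, *Slc2a10*, *Slc43a3*, *Slc6a13*, *Slc6a8* and *Slc7a4*, adjusted p from 0.0506 to 0.286). For the interaction 5 of the 23 calls did (*Slc16a7*, *Slc36a2*, *Slc38a10*, *Slc38a2* and *Slc7a5*, adjusted p from 0.0516 to 0.136). The AC treated SjSS samples also had the higher summed fibroblast markers, 87.6 to 112 CPM against 42.6 to 63.6 CPM in AC treated B6. Mean *Col1a1* was 83.9 against 33.5 CPM, *Dcn* and *Pdgfrb* were also higher in SjSS, and *Col3a1* was lower (10.8 against 13.4 CPM). Thymocyte markers without *Cd4* were at 3.21 to 4.24 against 2.76 to 4.03 CPM. The part of these markers in the strain differences was not tested.

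**Figure D5:**
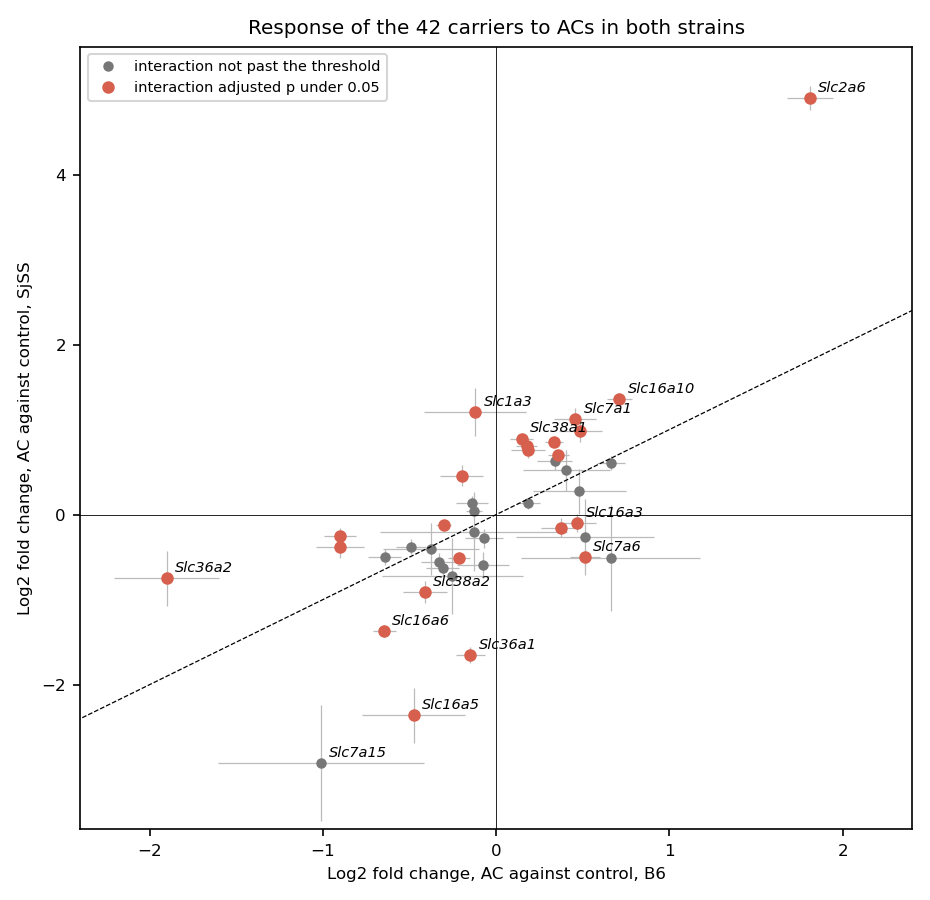
Log2 fold change of each of the 42 carriers with ACs in B6 (x axis) and in SjSS (y axis), with SE bars, a dashed line of equal responses, and red points where the interaction had an adjusted p under 0.05. *Slc2a6* lies far above the line (1.81 and 4.90), *Slc36a1* below it (-0.15 and -1.65), and *Slc7a6* in the quadrant of opposite signs.

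With CpG the strains differed for 9 carriers that were higher and 8 that were lower in SjSS, beside 10.2% and 9.57% of all genes. Those past the fold threshold were *Slc1a3* and *Slc7a15* (higher) and *Slc36a2* and *Slc6a12* (lower), beside 1.82% and 0.792%. The higher carriers included *Slc2a3* (1.17 ± 0.17, adjusted p = 6.33e-05), *Slc36a1* (0.70 ± 0.09, adjusted p = 1.83e-05) and *Slc1a5* (0.50 ± 0.11, adjusted p = 0.00356), and the lower ones *Slc2a6* (-0.53 ± 0.12, adjusted p = 0.00357) and *Slc3a2* (-0.32 ± 0.06, adjusted p = 0.000774). The response to CpG differed for 4 carriers, *Slc1a3*, *Slc2a3* and *Slc43a2* with the higher log2 response in SjSS and *Slc16a3* with the lower, beside 3.23% and 2.62% of all genes. Past the fold threshold in that interaction was *Slc1a3*, where the shares of all genes were 0.285% and 0.329%. With 1 sample left out, 7 of the 17 calls of the strain difference missed the threshold at least once (*Slc16a10*, *Slc16a3*, *Slc2a8*, *Slc6a12*, *Slc6a8*, *Slc7a15* and *Slc7a5*, adjusted p from 0.0543 to 0.221). So did 2 of the 4 calls of the interaction (*Slc1a3* and *Slc2a3*, adjusted p from 0.0505 to 0.127). The difference of *Slc7a15* was 1.57 without CpG treated B6 replicate 1 (adjusted p = 0.139) and 3.61 without replicate 3 (adjusted p = 0.0114), against 2.19 ± 0.72 (adjusted p = 0.0382) with all samples.

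Within a strain, the AC and CpG comparisons share the control samples, so their values are set side by side without a test. In SjSS, *Slc2a6* had log2 fold changes of 4.90 with ACs and 3.03 with CpG, and *Slc36a1* had -1.65 and -1.20. The signs were opposite, with both values past the threshold, for *Slc7a6* (-0.50 and 0.51), *Slc16a1* (0.76 and -0.62), *Slc16a9* (0.46 and -0.41) and *Slc43a3* (0.63 and -0.36). In B6 that was so for *Slc43a3* (0.34 and -0.24) and *Slc6a8* (0.37 and -0.44). *Slc38a6* ranged from 30.7 to 41.8 CPM, and the lowest of its 9 adjusted p was 0.0546, for the strain difference in AC treated BMDMs, which DESeq2 placed at 0.0255. *Slc38a10* fell with both treatments by 0.12 to 0.45 on the log2 scale. The smallest of these, with ACs in SjSS, missed the threshold with DESeq2 size factors (adjusted p = 0.0904), with DESeq2 (adjusted p = 0.0616) and with only the compared groups in the fit.

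Genes that work with these carriers were counted as lists. Of all genes tested, 20% rose and 18.3% fell with ACs in B6, 28.6% and 29.4% with ACs in SjSS, 28.1% and 29.8% with CpG in B6, and 27.8% and 26.4% with CpG in SjSS, and each list's counts stand beside these shares. Of 6 partners and regulators of carriers at the cell surface, 2 rose and 3 fell with ACs in B6 and 4 rose and 1 fell in SjSS. *Emb*, which encodes embigin, a partner of MCT proteins, moved in opposite directions (-0.86, adjusted p = 4.1e-07 in B6 and 0.34, adjusted p = 0.00317 in SjSS, with a difference of 1.20, adjusted p = 4.7e-07). *Txnip*, which lowers glucose uptake, fell with ACs by 0.54 and 0.56 and with CpG by 0.82 and 1.01 on the log2 scale in B6 and SjSS. All 6 were higher in AC treated SjSS than in AC treated B6 BMDMs, beside 24% of all genes. With CpG the list had 2 higher and 4 lower in each strain. Its median log2 fold changes were -0.06 and 0.29 with ACs and -0.66 and -0.40 with CpG in B6 and SjSS. Of 10 genes of glucose and lactate use, 7 rose and 2 fell with CpG in B6, and 6 rose and 3 fell in SjSS. With ACs 3 rose and 3 fell in B6 and 5 rose and 4 fell in SjSS. The list had median log2 fold changes of 0.01 and 0.07 with ACs and 0.55 and 0.39 with CpG in B6 and SjSS. The lactate dehydrogenase gene *Ldha* rose with CpG by 1.09 in B6 and 0.40 in SjSS (difference -0.69, adjusted p = 0.000341). The hexokinase gene *Hk2* rose by 1.22 and 0.38 (difference -0.84, adjusted p = 0.000697). *Pfkfb3*, an activator of glycolysis, rose with ACs in SjSS (1.33, adjusted p = 8.82e-10), with a B6 value of 0.25 (adjusted p = 0.0519) and a difference of 1.08 (adjusted p = 5.04e-06).

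Of 13 genes of the amino acid response, 7 rose and 1 fell with ACs in B6 (all genes 20% and 18.3%), and 6 rose and 4 fell in SjSS (all genes 28.6% and 29.4%). With CpG 5 rose and 3 fell in B6 (all genes 28.1% and 29.8%) and 5 rose and 5 fell in SjSS (all genes 27.8% and 26.4%). Its median values were 0.51 and 0.15 with ACs and 0.36 and 0.43 with CpG in B6 and SjSS. *Atf4*, its central factor, rose by 0.51 and 0.61 on the log2 scale with ACs in B6 and SjSS, and *Asns*, asparagine synthetase, by 1.18 and 0.49 (difference -0.69, adjusted p = 0.044). *Ddit3*, which encodes CHOP, rose with ACs in B6 (0.42, adjusted p = 0.0337) and fell in SjSS (-0.49, adjusted p = 0.00884), with a difference of -0.91 (adjusted p = 0.00224). Of 13 genes of nutrient sensing at the lysosome that were tested, 4 rose and 5 fell with ACs in B6, 5 rose and 5 fell in SjSS, 4 rose and 8 fell with CpG in B6, and 1 rose and 9 fell in SjSS. The medians were 0.00 and -0.09 with ACs and -0.27 and -0.31 with CpG in B6 and SjSS. *Tfeb*, which encodes a factor of lysosomal genes, fell with ACs by 0.44 in B6 and 1.22 in SjSS (difference -0.78, adjusted p = 0.000181). *Flcn*, a regulator of the Rag proteins, fell by 0.48 and 1.21 (difference -0.73, adjusted p = 0.000779). Of 9 genes of amino acid use that were tested, 4 rose and 1 fell with ACs in B6 and 5 rose and 1 fell in SjSS. With CpG 4 rose and 3 fell in B6, and 5 rose and 3 fell in SjSS. For this list the medians were 0.18 and 0.55 with ACs and 0.15 and 0.30 with CpG in B6 and SjSS. *Ass1*, which makes argininosuccinate from citrulline, rose with ACs by 1.75 in B6 and 2.62 in SjSS (difference 0.87, adjusted p = 0.000723) and with CpG by 3.33 and 3.00. *Kynu*, an enzyme of tryptophan breakdown, fell with ACs in B6 (-1.91, adjusted p = 0.000236), with an SjSS value of 0.67 (adjusted p = 0.0681) and a difference of 2.58 (adjusted p = 0.000219).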

How the data were processed

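RNA was sequenced from 18 samples of BMDMs, 3 in each of 6 groups. The deposited values are estimated counts per gene: per the labels, the authors used STAR for alignment (mm10) and the E/M method of Partek for quantification, and the submitters' processing notes also name DESeq2. Of the carriers' values 40.5% were not whole, since reads that fit several genes are shared out, and estimated counts were rounded before testing. Whether strand was used in counting is not given in the sources used here. The members and gene lists were chosen with earlier results of these data known.

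Counts were tested with edgeR 4.0.16 (R 4.3.3, limma 3.58.1): TMM scaling, the filterByExpr filter, which kept 15789 of 20615 genes, 6 group means and the quasi-likelihood test, with Benjamini-Hochberg adjustment within each of 9 comparisons (two-sided). The script was tested on simulated counts. Totals were 30688336 to 57139662 counts, and carriers under 1 CPM rest on few counts. Alternatives were DESeq2 1.42.0, its size factors within edgeR, other filters, a fit of only the groups compared, a block for the replicate number, the log2 fold threshold of 1.3 and each sample left out. Values in every sample are given for carriers past both thresholds in any comparison and for a list of well-known carriers, and the others are given by ranges. Same-numbered samples were compared by the correlation of their deviations from group means over 5000 genes. All 3 correlations were over 0.1 only for CpG in B6 (0.584, 0.195 and 0.167). Control samples of B6 and SjSS, which cannot share a mouse, had 0.134, 0.023 and 0.31. The check therefore cannot tell whether same-numbered samples share a mouse. The main fit had no replicate block in any comparison, and the blocks were run as alternatives only. Promoters were taken from RefSeq tables (GRCm38.p6). Figures were drawn with matplotlib 3.10.9 in Python 3.11.15.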

Additional observations from a re-analysis of the deposited data

Results flagged for a closer look

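The response to ACs differed between the strains, by edgeR's test of the interaction at an adjusted p under 0.05, for 23 of 42 carriers. Of all genes tested, 19.6% had the higher and 18.3% the lower log2 response in SjSS. Each value is the log2 fold change in SjSS minus that in B6. The 15 above 0 were *Slc2a6* (3.09), *Slc1a3* (1.32), *Slc36a2* (1.15), *Slc38a1* (0.75), *Slc7a1* (0.67), *Slc16a9* (0.66), *Slc2a9* (0.65), *Slc16a10* (0.65), *Slc7a7* (0.63), *Slc16a1* (0.57), *Slc16a7* (0.52), *Slc7a8* (0.52), *Slc7a5* (0.49), *Slc3a2* (0.34) and *Slc38a10* (0.18). The 8 below 0 were *Slc16a5* (-1.88), *Slc36a1* (-1.50), *Slc7a6* (-1.01), *Slc16a6* (-0.72), *Slc16a3* (-0.56), *Slc6a8* (-0.53), *Slc38a2* (-0.50) and *Slc43a2* (-0.29). Among these, *Slc16a5* and *Slc1a3* had means under 1 CPM in control B6 BMDMs. The calls of *Slc16a7*, *Slc36a2*, *Slc38a10*, *Slc38a2* and *Slc7a5* missed the threshold in some fits with 1 sample left out.

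The response to CpG differed between the strains for 4 carriers by the same test, *Slc1a3* (1.43), *Slc2a3* (0.85) and *Slc43a2* (0.47) above 0 and *Slc16a3* (-1.24) below. Of all genes tested, 3.23% had the higher and 2.62% the lower log2 response in SjSS. The calls of *Slc1a3* and *Slc2a3* missed the threshold in some fits with 1 sample left out. *Slc16a3*, *Slc1a3* and *Slc43a2* differed in both responses, and the interactions with ACs and with CpG share the control samples.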

How the results depend on the processing

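Of 378 carrier values (42 carriers in 9 comparisons), 197 passed the threshold. Of these, 150 did so under all alternatives run (the fold threshold aside) and 47 missed it under at least one. None of the 197 changed sign, and changes of sign were not counted for values that had not passed. Adding the log2 fold threshold of 1.3 left, as carriers higher and lower, 1 and 1 for ACs in B6, 2 and 4 for ACs in SjSS, 5 and 7 for CpG in B6, 7 and 3 for CpG in SjSS, 1 and 1 for the strains in control, 3 and 1 with ACs, 2 and 2 with CpG, 2 and 2 for the interaction with ACs and 1 and 0 for that with CpG. Carriers higher in control SjSS numbered 5, but 3 with no filter on low counts and 2 with only the compared groups in the fit. Those higher with CpG numbered 9, but 5 with only the compared groups, and those with the higher CpG response in SjSS 3, but 1. Those with the lower CpG response numbered 1, but 2 with DESeq2 size factors, 4 with DESeq2, 2 with the replicate block and 3 with the replicate block within strain, and the cause was not tested. With 1 sample left out, the carriers higher and lower ranged over 10 to 12 and 8 to 12 for ACs in B6, 13 to 14 and 13 to 17 for ACs in SjSS, 11 to 13 and 19 to 21 for CpG in B6, 11 to 12 and 15 to 18 for CpG in SjSS, 2 to 5 and 3 to 6 for the strains in control, 12 to 16 and 6 to 9 with ACs, 5 to 8 and 6 to 8 with CpG, 11 to 15 and 7 to 9 for the interaction with ACs, and 1 to 3 and 1 to 3 for that with CpG. The replicate block over all samples ended 5 calls and made 8, and the block within strain ended 2 and made 12. Whether samples that share a number share a mouse is not known for any comparison within a strain. Carriers under 1 CPM, among them *Slc1a3*, *Slc2a10*, *Slc6a13* and *Slc7a15*, are limited by their counts.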
